A study of Raphanus sativus with 9 samples.

Results

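The expression of 38 radish genes was examined that stayed within 2-fold of their level through 4 weeks of cold and were at least 8-fold lower after 2 further weeks in the warm. They were chosen out of the 64657 genes in the count files by a rule on mean expression in CPM, the counts of a gene scaled to the same total of gene counts in every library. With 0.1 CPM added to each mean, the rule required at least 10 CPM before vernalization, a level in the cold between 0.5 and 2 times the level before it, and a level after the cold that was at most 1/8 of both. Since the rule used the means of all 3 time points, the differences between time points are given for these genes as a description and not as a test. *RsMYB29a* (RSG00789) met the same thresholds but was excluded by name, together with its homolog *RsMYB29b* (RSG09585), which did not meet them.

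RNA came from leaf and root tissue of *Raphanus sativus* cv. Taebaek, a radish cultivar with no transgene or mutation named. Plants before vernalization (BV, called NV in the labels) were 4 weeks old and grown in a greenhouse. Plants during vernalization (V) were 8 weeks old after 28 days of cold, and plants after vernalization (AV) were 10 weeks old after the same cold and 14 days of warm temperature. Each time point had 3 biological replicates. V plants were older than BV plants and AV plants older still, and greenhouse plants of those ages were not analysed here. Per the paper, V plants were in a cold room with its own day length, sodium light and humidity, and AV plants were back in the greenhouse. The effects of age, of vernalization and of these other growth conditions cannot be told apart. The labels name both whole seedlings and leaf and root tissue, and the identifiers could not be matched to leaf or root marker genes, so the tissue was not checked against markers. Within these bulk libraries, fewer cells of a type and less RNA per cell cannot be told apart.

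The gene counts of a library summed to 21119531 to 27606212, and a floor of 3 counts equaled 0.109 to 0.142 CPM. AV replicates 2 and 3 had equal counts for 98.7% of genes at 40 counts or more, against at most 0.899% for any other pair of libraries, and for the 38 genes their counts did not differ at all. AV replicate 3 was therefore left out, which leaves n = 3 in BV and V and n = 2 in AV. The spread in AV is thus poorly known for each gene below.

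Vernalization is the response by which a long cold period makes a plant able to flower. In *Arabidopsis* it silences the floral repressor gene *FLC*, and the silent state is kept after the return to warm temperature. In Brassicaceae such as radish, leaves and roots also hold glucosinolates (GSLs), sulfur compounds that are cleaved by myrosinases into products that deter herbivores and pathogens. Of the 94 GSL gene identifiers that the study lists, 1 was among the 38 genes, *RsTGG1b* (RSG25390), a homolog of the *Arabidopsis* myrosinase gene *TGG1*. The other 37 genes carry only their RSG identifiers, which matched no entry of the RefSeq annotation of radish, and they are described without a name, a position, a sequence or a function.

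Together the 38 genes took 1908, 2013, and 1943 CPM in BV replicates 1, 2, and 3, and 1642, 1554, and 1696 CPM in V replicates 1, 2, and 3. In AV they took 127 and 110 CPM. The summed level was thus highest in the 3 BV libraries, a little lower in all 3 V libraries, and far lower in both AV libraries. The mean sum in BV was 1955 ± 53.4 CPM (SD, n = 3) and that in V was 1630 ± 71.6 CPM (SD, n = 3). In AV it was 119 ± 12.1 CPM (SD, n = 2), 16.5-fold below BV. RSG49859 alone held 36.0% of the sum in BV, and without it the sum of the other 37 genes was 17.6-fold lower in AV than in BV. Those 37 genes took 1273, 1256, and 1226 CPM in BV and 1141, 1028, and 1160 CPM in V. The median over the 38 genes was 24.6, 26.1, and 21.7 CPM in BV and 26.0, 24.5, and 24.4 CPM in V. By this median the BV and V libraries overlapped.

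**Figure D1:**
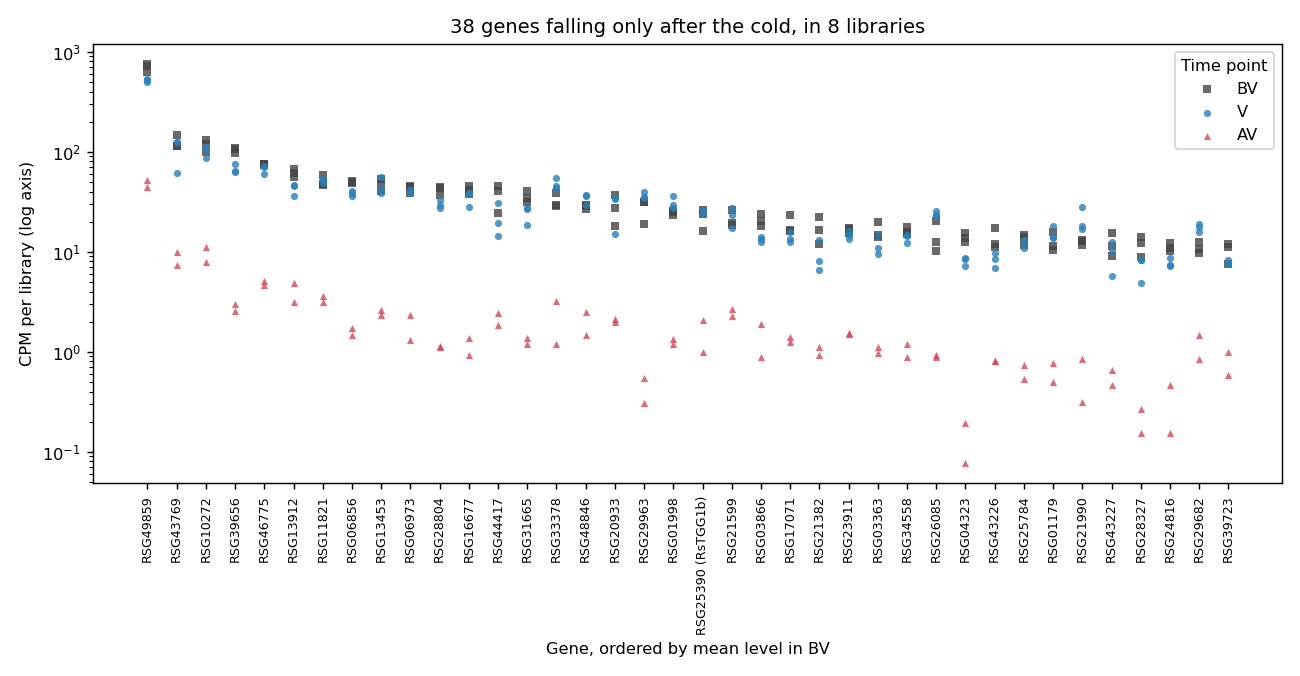
Expression of each of the 38 genes in the 8 libraries, in CPM on a log axis, with genes ordered by their mean in BV. Squares are BV replicates, circles are V replicates, and triangles are AV replicates. For every gene both AV libraries lie below all BV and V libraries, and the lowest of those 6 is at least 5.91 times the higher AV library.

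The single genes were lower in AV than in BV by 8.33-fold to 59.8-fold, with a median of 15.2-fold, and lower than in V by 8.30-fold to 69.7-fold, with a median of 15.1-fold. The difference from BV was at most 16-fold for 21 genes, between 16-fold and 32-fold for 11 genes, and above 32-fold for 6 genes. In AV, 11 of the genes had a mean under 1 CPM, 24 had 1 to 5 CPM, and 3 had 5 CPM or more. No gene was at or below the floor of 3 counts in both AV libraries, and 1 gene, RSG04323, was at or below it in 1 of them. The lower bound of 8-fold in these ranges was set by the rule.

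RSG49859 had the most counts of these genes at every time point; counts are not scaled to gene length, so that levels of different genes are not ranked here as amounts of transcript. It was at 635, 757, and 717 CPM in BV, at 501, 526, and 536 CPM in V, and at 51.7 and 43.9 CPM in AV. All V libraries were below all BV libraries and both AV libraries were lower by an order of magnitude. The mean was 0.741 times that of BV in V, and 14.7-fold below BV in AV.

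RSG43769 was at 146, 115, and 113 CPM in BV, at 124, 61.5, and 125 CPM in V, and at 7.41 and 9.95 CPM in AV. The ranges of BV and V overlapped, with V replicate 2 far below the other V libraries, and AV was 14.2-fold below BV. RSG10272 was at 120, 99.7, and 132 CPM in BV, at 105, 87.3, and 111 CPM in V, and at 11.2 and 7.89 CPM in AV. BV and V overlapped here as well, and AV was 12.1-fold below BV.

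The largest differences between AV and BV were those of RSG04323, RSG29963, and RSG28327, each of which ended near the floor. RSG04323 was at 15.4, 12.6, and 13.8 CPM in BV and at 7.24, 8.38, and 8.64 CPM in V. In AV it was counted 5 times in replicate 1 and 2 times in replicate 2, or 0.192 and 0.0778 CPM, so that its 59.8-fold difference from BV rests on very few reads.

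RSG29963 was at 31.4, 31.1, and 18.9 CPM in BV, at 39.5, 35.3, and 34.9 CPM in V, and at 0.307 and 0.544 CPM in AV. It was thus somewhat higher in all V libraries than in all BV libraries before it reached 8 and 14 counts in AV, 69.7-fold below V. RSG28327 was at 8.84, 12.3, and 14.0 CPM in BV, at 8.26, 4.92, and 8.28 CPM in V, and at 0.269 and 0.156 CPM in AV. Its V libraries were all below its BV libraries, and AV was 37.9-fold below BV with 7 and 4 counts.

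In the cold the genes differed in their ratio of V to BV, within the limits set by the rule. The ratio of V to BV ranged from 0.548 to 1.68 with a median of 0.848, and the ratio was below 1 for 26 genes and above 1 for 12. It was within 1.25-fold for 16 genes, at most 0.8 for 16, and at least 1.25 for 6. Among all 13140 genes with at least 10 CPM in BV and a V level within the same 2-fold limits, the median ratio was 0.990. All V libraries were below all BV libraries for 14 of the 38 genes, where the same held for 21.5% of those 13140 genes. All V libraries were above all BV libraries for 7 genes, against 20% of the 13140, and the ranges overlapped for the other 17. The rule used the BV and V means, so these values are a description. Nothing is read from their difference from the 13140 genes.

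The 14 genes below BV in every V library include RSG39656, which was at 97.0, 108, and 106 CPM in BV, at 63.7, 75.9, and 62.2 CPM in V, and at 2.99 and 2.57 CPM in AV. Its mean was 0.649 times that of BV in V, and 36.1-fold below BV in AV. For every member the rule allowed less than a 2-fold decrease in the cold and required at least 8-fold after it. RSG28804 had the same order with 43.5, 44.1, and 37.2 CPM in BV, 29.2, 27.6, and 33.2 CPM in V, and 1.15 and 1.13 CPM in AV. The replicates of RSG28804 in AV were nearly equal.

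The 7 genes above BV in every V library include RSG21990, the member with the highest ratio of V to BV. It was at 12.7, 11.6, and 13.2 CPM in BV, at 16.9, 28.3, and 18.1 CPM in V, and at 0.844 and 0.311 CPM in AV. V replicate 2 was well above the other V libraries, and the ratio of 1.68 rests in part on it. RSG26085, with a ratio of 1.65, was at 12.6, 10.2, and 20.3 CPM in BV, at 25.3, 22.5, and 23.3 CPM in V, and at 0.882 and 0.933 CPM in AV. RSG29682, with a ratio of 1.61, was at 12.4, 9.66, and 10.6 CPM in BV, at 17.7, 15.9, and 19.2 CPM in V, and at 1.46 and 0.855 CPM in AV. These 3 genes were highest in the cold and lowest after it.

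The remaining 17 genes had overlapping libraries in BV and V. One of them was RSG11821, with 46.2, 58.1, and 47.9 CPM in BV, 52.0, 52.9, and 48.7 CPM in V, and 3.65 and 3.11 CPM in AV. All 6 libraries before the return to warm temperature were within a narrow range, and AV was 14.6-fold below BV. RSG13453 was at 53.2, 47.6, and 40.4 CPM in BV, at 43.5, 55.9, and 38.5 CPM in V, and at 2.61 and 2.33 CPM in AV. Its difference between AV and BV was 18.4-fold.

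In a fit of all 32043 genes that passed the filter on low counts, with all 38 genes among them, edgeR called 38 of the 38 lower in AV than in BV at an adjusted p under 0.05, against 19.8% of the genes tested. It also called 38 lower in AV than in V, against 16.9%. Both counts follow from the rule and nothing is read from them. Between V and BV, 12 of the 38 were called lower, against 19.3% of the genes tested, and 3 were called higher, against 19.2%; the rule had removed changes above 2-fold from this comparison too. The 12 and 3 depended on single libraries, with 6 lower and 2 higher without V replicate 1, 7 and 1 without BV replicate 1, and 9 and 4 without BV replicate 3. Without V replicate 2, V replicate 3, and BV replicate 2 in turn, 10, 9, and 11 were lower and 2, 2, and 1 higher. Over all genes, 6350 were lower in AV than in BV, and this count dropped to 4202 without AV replicate 1 and to 4154 without AV replicate 2. The 5409 genes lower in AV than in V became 3271 and 3336 in the same fits, in which the remaining AV library was assumed to vary like the other groups.

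**Figure D2:**
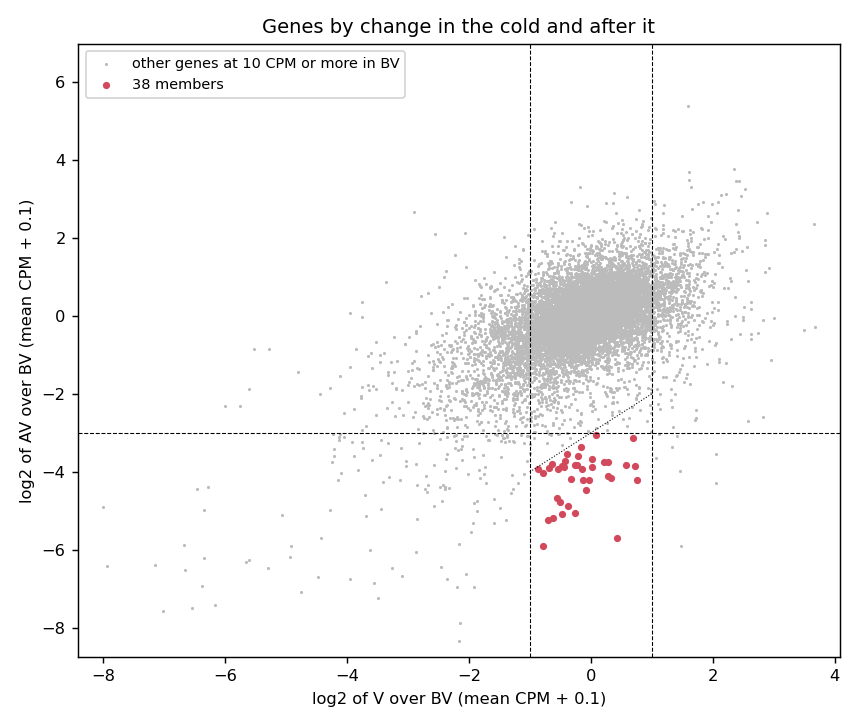
Each point is a gene with at least 10 CPM in BV, placed by its log2 ratio of V to BV on the horizontal axis and of AV to BV on the vertical axis, with 0.1 CPM added to each mean. Dashed lines mark the 2-fold limits in V and the 8-fold limit in AV, the dotted line marks AV at 1/8 of V, and the 38 members (large points) lie inside these limits, below the bulk of the genes.

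The genes were few among those within 2-fold of BV in the cold. Of the 13140 genes with at least 10 CPM in BV and within 2-fold in V, the 38 genes made up 0.289%. The ratio of AV to BV was between 0.5 and 2 for 11794 of the 13140 and its median was 1.06. Another 518 were between 2-fold and 4-fold lower in AV than in BV, 120 between 4-fold and 8-fold, and 48 at least 8-fold, so that the numbers thinned out without a gap. On the other side, 610 genes had a ratio between 2 and 4, 47 between 4 and 8, and 3 above 8. With the rule turned around, within 2-fold in V, at least 10 CPM in AV and at least 8-fold higher there than in both BV and V, 9 genes were found over the whole series, and 1 of them was among the 13140.

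Most of the genes that ended low were already more than 2-fold lower, or at that limit, in the cold. Without the *RsMYB29* homologs, 201 genes had at least 10 CPM in BV and were at least 8-fold lower in AV. Of these, 57 (28.4%) were already at or below 1/8 of the BV level in V, 89 (44.3%) were between 1/8 and 0.5 times, 47 (23.4%) were within 2-fold of BV, and 8 were at least 2-fold higher in V. The 38 genes are those of the 47 that were also at least 8-fold below V, and the other 9 missed that limit.

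The member closest to the limit between AV and BV was RSG21599, 8.33-fold lower in AV, and the nearest gene outside it was RSG00142, 7.89-fold lower. For AV against V, RSG21382 was inside at 8.30-fold and RSG26894 outside at 7.16-fold. For the BV level, RSG39723 was inside at 10.3 CPM and RSG47342 outside at 9.97 CPM, both with 0.1 CPM added. RSG47342 was at 11.2, 10.2, and 8.21 CPM in BV, at 11.5, 15.2, and 9.90 CPM in V, and was counted 3 times and 1 time in AV. For the ratio of V to BV, RSG21382 was inside at 0.548 and RSG39217 outside at 0.435 on the low side, and RSG21990 was inside at 1.68 and RSG06553 outside at 2.10 on the high side.

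The choice of libraries changed a few members. When each of the 8 libraries was left out in turn and the rule was applied again, 31 of the 38 genes met it every time. The 7 others were lost at least once, with RSG21382, RSG21599, and RSG39723 lost in 3 of the 8 repeats and RSG03866, RSG26085, RSG29682, and RSG44417 in 1 each.

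Deviations of single replicates from their group entered the rule only through the group means. The median SD of log2 CPM over replicates was 0.19 in BV and 0.17 in V for the 38 genes, against 0.21 and 0.16 for the 13140 genes with at least 10 CPM in BV and within 2-fold in V. BV replicate 3 was at least 1.5-fold below both other BV libraries for 4 of the 38 genes (10.5%) and for 5.49% of the 13140. V replicate 2 was at least 1.5-fold below both other V libraries for 4 genes (10.5%, against 6.29%) and at least 1.5-fold above both for 3 genes (7.89%, against 2.69%). BV replicate 3 was above both for 1 gene, RSG26085, and no other library stood apart from its group in this way for any of the 38 genes. The 13140 genes were not matched to the members by level, and the shares of the members rest on few genes.

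**Figure D3:**
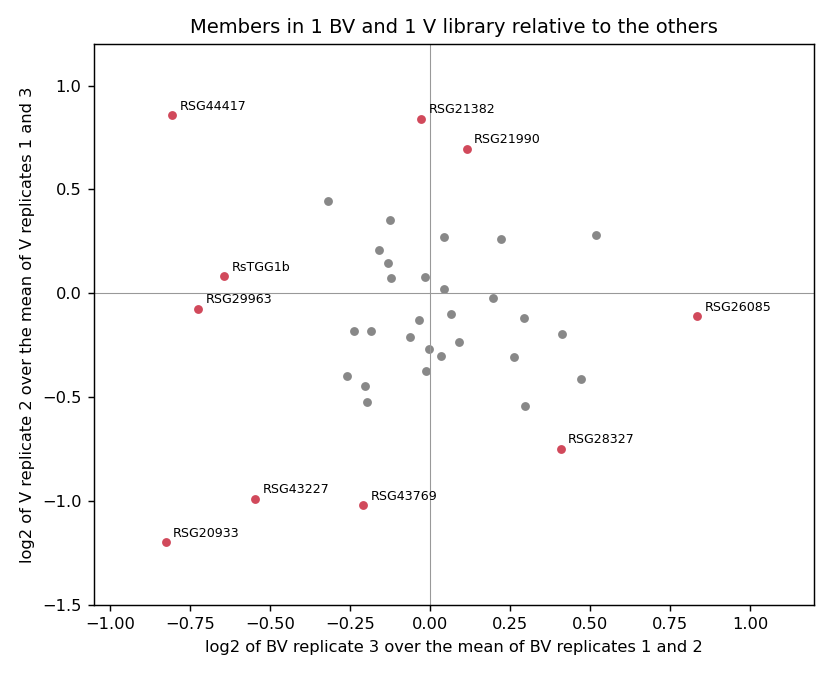
Each point is 1 of the 38 genes, placed by the log2 ratio of BV replicate 3 to the mean of BV replicates 1 and 2 and by the log2 ratio of V replicate 2 to the mean of V replicates 1 and 3. Genes in which 1 library was at least 1.5-fold from both others of its group are named; RSG20933 is low in both libraries, while RSG44417 is low in BV replicate 3 and high in V replicate 2.

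RSG20933 was at 36.7, 27.4, and 18.1 CPM in BV, at 34.4, 14.9, and 34.1 CPM in V, and at 2.00 and 2.14 CPM in AV. Among the 38 genes it had the widest range within BV or V, 2.30-fold in V, while its BV and V means were nearly equal. RSG44417 was at 40.4, 45.5, and 24.6 CPM in BV, at 19.2, 30.5, and 14.5 CPM in V, and at 1.84 and 2.45 CPM in AV. Its range was 2.11-fold in V, with V replicate 2 as the highest and not the lowest library. Both genes were picked for their wide ranges, and they differed in the direction in which V replicate 2 departed from the other V libraries. Whether such differences came from the plants or from the libraries was not tested.

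RSG43226 and RSG43227 were the sole pair of members with consecutive identifiers. RSG43226 was at 17.3, 11.2, and 11.9 CPM in BV, at 8.48, 6.87, and 9.63 CPM in V, and at 0.806 and 0.816 CPM in AV. RSG43227 was at 11.4, 15.3, and 9.15 CPM in BV, at 10.3, 5.78, and 12.6 CPM in V, and at 0.652 and 0.467 CPM in AV. Both were lowest in V replicate 2 within V, as were 55.3% of all members and 50.4% of the 13140 genes. In BV the highest library was replicate 1 for RSG43226 and replicate 2 for RSG43227. Whether they are neighbours or copies of each other was not examined, and reads shared by close copies may have been left out of both counts.

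The AV libraries of the pair used differed by more than 2-fold for 6 of the 38 genes, all of them under 5 CPM in AV. Of 12559 genes with reads in both AV libraries and an AV mean from 0.135 CPM to under 5 CPM, 21.5% differed as much. These genes were not matched to the members by level within that range. RSG33378 was at 28.7, 29.1, and 38.5 CPM in BV, at 45.5, 43.5, and 54.2 CPM in V, and at 3.18 and 1.21 CPM in AV, a 2.64-fold difference within AV. AV replicate 1 was the higher library for 25 of the 38 genes (65.8%), against 43.8% of the 12559 genes. Of the 38, 3 were at 5 CPM or more in AV and so above the range of the 12559.

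*RsTGG1b* was at 24.1, 26.0, and 16.03 CPM in BV, at 24.6, 26.5, and 25.4 CPM in V, and at 0.998 and 2.10 CPM in AV. It was low in BV replicate 3 but otherwise almost level through the cold, and both AV libraries were far below the rest. The mean in BV was 22.0 ± 5.28 CPM (SD, n = 3) and that in V was 25.5 ± 0.924 CPM (SD, n = 3). In AV it was 1.55 ± 0.779 CPM (SD, n = 2), 13.4-fold below BV and 15.5-fold below V. The AV means rest on 26 and 54 counts.

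The other 7 homologs of *TGG1* showed different courses, and since they were not chosen by the rule they could be tested. *RsTGG1e* and *RsTGG1f* rose in the cold and fell after it. *RsTGG1f* was at 8.76, 7.92, and 4.40 CPM in BV, at 29.1, 30.9, and 28.7 CPM in V, and at 1.11 and 1.52 CPM in AV, and its groups did not overlap. Between V and BV its log2 fold change was 2.05 (standard error 0.23, edgeR adjusted p = 4.14e-06) and between AV and V it was -4.54 (standard error 0.31, adjusted p = 4.65e-08, edgeR). *RsTGG1e* was at 77.1, 81.8, and 84.5 CPM in BV, at 185, 193, and 196 CPM in V, and at 26.6 and 28.0 CPM in AV. Between V and BV its log2 fold change was 1.21 (edgeR adjusted p = 8.55e-06) and between AV and V it was -2.86 (adjusted p = 1.96e-08, edgeR).

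The other *TGG1* homologs fell in the cold. *RsTGG1a* was at 681, 710, and 391 CPM in BV, at 231, 230, and 230 CPM in V, and at 77.1 and 83.2 CPM in AV, and *RsTGG1g* also fell again after the cold. Between V and BV, the log2 fold change of *RsTGG1a* was -1.40 (edgeR adjusted p = 4.13e-05) and that of *RsTGG1g* was -1.55 (edgeR adjusted p = 8.47e-05). Between AV and V, these values were -1.58 (edgeR adjusted p = 7.02e-05) and -1.47 (edgeR adjusted p = 0.000796). *RsTGG1c*, *RsTGG1d*, and *RsTGG1h* fell in V against BV by log2 fold changes of -3.92 (edgeR adjusted p = 2.18e-09), -2.48 (edgeR adjusted p = 2.94e-08), and -1.12 (edgeR adjusted p = 5.81e-05). Their log2 fold changes in AV against V of 0.23 (edgeR adjusted p = 0.419), 0.46 (edgeR adjusted p = 0.0612), and 0.41 (edgeR adjusted p = 0.0948) missed the threshold of 0.05. The last 2 passed it without V replicate 2 (*RsTGG1d* 0.60, edgeR adjusted p = 0.00986; *RsTGG1h* 0.54, edgeR adjusted p = 0.0293). All 7 were lower in AV than in BV, but *RsTGG1h* lost this call without AV replicate 2 (log2 fold change -0.63, edgeR adjusted p = 0.0801). Reads that fit more than 1 close homolog may be missing or assigned to the wrong copy, and the counts of this family are uncertain to that extent.

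**Figure D4:**
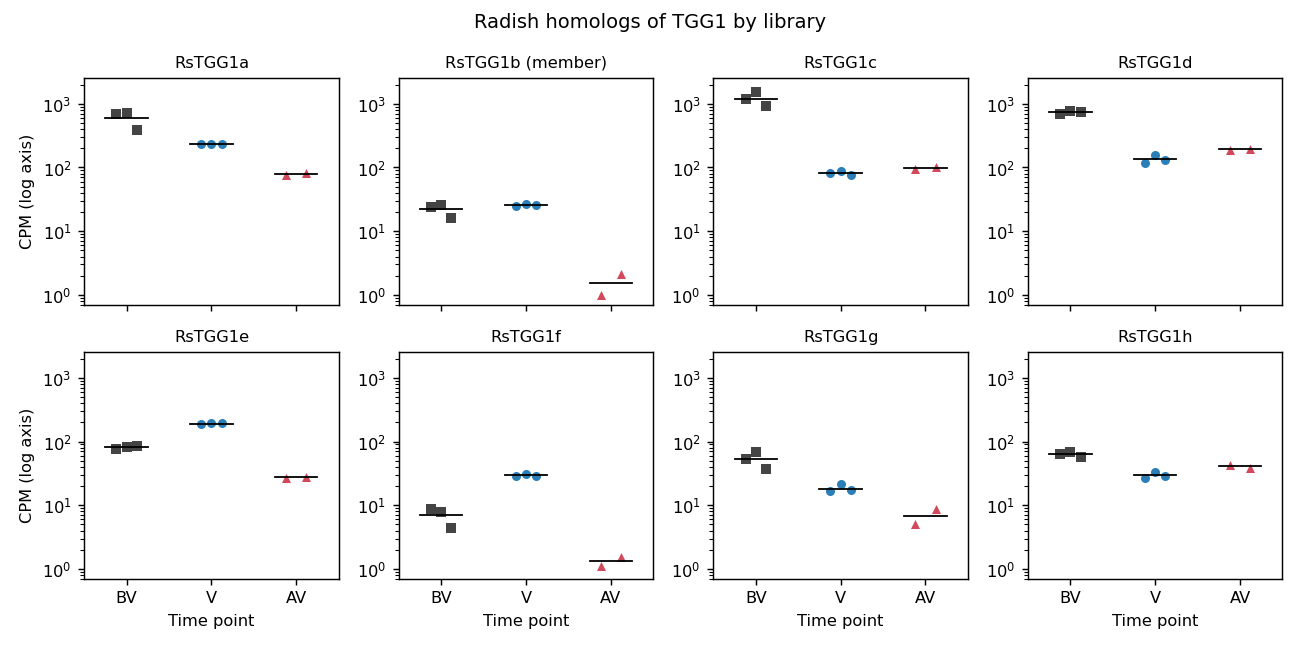
Expression of the 8 radish homologs of *TGG1* at each time point, in CPM on a log axis shared by all panels. Each symbol is a library (3 in BV, 3 in V, 2 in AV) and the bar is the group mean; *RsTGG1b* is level between BV and V and low in AV, *RsTGG1e* and *RsTGG1f* peak in V, and the other 5 are highest in BV.

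The 15 genes that the study lists under GSL breakdown also include 3 homologs of the myrosinase gene *TGG2*, *RsPEN2*, a homolog of an *Arabidopsis* atypical myrosinase gene of pathogen defense, and 3 homologs of *PEN3*, which encodes a transporter of the same defense pathway. All 15 were tested. Between AV and BV, 11 were lower, *RsTGG1b* among them, and 4 were higher, against 19.8% lower and 17% higher over all genes (edgeR, adjusted p under 0.05). The 11 were the *TGG1* and *TGG2* homologs, and the 4 were *RsPEN2* and the *RsPEN3* homologs. Between V and BV, 8 were lower and 5 higher, against 19.3% and 19.2% over all genes. Between AV and V, 6 were lower and 3 higher, against 16.9% and 14.7% over all genes. Both the 11 and the 6 include *RsTGG1b*, whose calls follow from the rule. Leaving this gene out gives 10 in place of the 11 and 5 in place of the 6. The medians of the 15 below include it. Without BV replicate 2 or without V replicate 2, 5 were higher in AV than in V. The median log2 fold change of the 15 was -1.12 in V against BV, -2.50 in AV against BV, and 0.01 in AV against V, while the medians of all genes tested were 0.01, 0.00, and -0.02.

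Among the 94 listed GSL gene identifiers, 36 had at least 10 CPM in BV and a V level within 2-fold. Beside *RsTGG1b* and *RsMYB29a*, the ratio of AV to BV was at or below 0.5 for 14 of the other 34, between 0.5 and 2 for 17, and at least 2 for 3. The share at or below 0.5 was 41.2% of the 34, and 5.22% of the 13140 genes under the same limits. Apart from *RsGSTF9a* and *RsCYP81F2d*, listed under the indolic pathway, the 14 were genes that the study lists under the aliphatic pathway. The indolic genes *RsCYP83B1*, *RsGSTF10*, *RsSOT16a*, *RsSOT16b*, and *RsIGMT5* were between 0.5 and 2. The 3 at or above 2 were the breakdown genes *RsPEN2*, *RsPEN3b*, and *RsPEN3c*. The nearest to the rule was *RsUGT74C1b* (RSG13253), a homolog of an *Arabidopsis* glucosyltransferase gene of GSL synthesis, at 8.08-fold below BV but 6.15-fold below V. *RsMYB29a*, a homolog of a regulator of aliphatic GSL genes, was at 195, 202, and 111 CPM in BV, at 154, 185, and 160 CPM in V, and at 16.9 and 19.7 CPM in AV. It was 9.21-fold lower in AV than in BV. Like *RsTGG1b* it was lowest in replicate 3 among the BV libraries, as were 39.5% of the 13140 genes.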

How the data were processed

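Per the labels and the paper, the authors checked reads of stranded mRNA libraries with FastQC, trimmed them, mapped them with Tophat2 against the Nodai assembly of radish, and deposited raw counts per gene from HTSeq-count; tool versions and the strand setting are not given in the sources used here. Reads assigned to no gene (4.27% to 8.89% of each file) were left out. CPM is a count divided by the library's total over genes, with no further scaling. The 38 genes and all lists were chosen with earlier results of these data known. AV replicate 3, a near copy of AV replicate 2, was left out.

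The 8 other libraries were fitted together in edgeR 4.0.16 under R 4.3.3 (TMM, filterByExpr, glmQLFit with robust estimation, glmQLFTest). P-values were adjusted by Benjamini-Hochberg over the 32043 genes, and genes under 0.05 were called at any fold change. The standard error is the log2 fold change divided by the square root of F. The code was tested on simulated data. With n = 3 against 2 or 3, each p-value rests on a spread between replicate libraries that edgeR estimates with information shared across genes.

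Genes are named when they are listed GSL members or their *TGG1* homologs, the 3 members with the highest BV level, the 3 with the largest fall, those with the highest and lowest V/BV ratio, those nearest each limit on both sides, and the 3 with the widest range within BV or V. RSG39656, RSG28804, RSG26085, RSG29682, RSG11821, RSG13453, RSG43226, RSG33378, *RsUGT74C1b*, and those lost when libraries were left out were chosen after their values were seen. Alternatives were other scalings, filters, offsets, folds, DESeq2 1.42.0, a replicate block, other treatments of AV replicate 3, and each library left out.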

Additional observations from a re-analysis of the deposited data

How the results depend on the processing

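The rule gave 38 genes, 38 with AV replicates 2 and 3 averaged, 40 with all 9 libraries, and 41 with TMM library sizes or DESeq2 size factors, and the 38 genes were among them each time. It gave 25 with an offset of 1 CPM (24 of them among the 38), 105 at 4-fold, 15 at 16-fold, and 69 at a minimum BV level of 1 CPM, and 36 to 43 when each library was left out. All 38 were called lower in AV against BV and in AV against V in each of the 16 fits, while 6 to 14 were called lower and 1 to 4 higher in V against BV.

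When each library was left out, 4154 to 6690 genes were lower and 3295 to 5790 higher in AV against BV, and 3271 to 6077 lower and 2721 to 5448 higher in AV against V; the low ends are fits with 1 AV library. Without AV replicate 1, 4202 were lower and 3399 higher in AV against BV, and 3271 and 2721 in AV against V; without AV replicate 2, these were 4154, 3295, 3336, and 2984. Of the GSL breakdown genes, 2 to 5 were higher in AV against V. The other counts stayed within 1.5 times their value, and no named gene changed its direction in a comparison where it was called.

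Same-numbered BV and V libraries had correlated deviations across genes of r = 0.05, 0.24, and 0.12 (genes are not independent replicates), and BV replicate 3 correlated best with V replicate 1 (r = 0.15), so that the numbers were not taken to pair the plants. With the replicate block, 14 members were called lower and 4 higher in V against BV and 38 lower in both other comparisons, and 6471 genes were lower and 6605 higher in V against BV; it changed no call of the *TGG1* homologs. *RsTGG1d* was called higher in AV than in V in 6 of the fits. Among them was the fit of all 9 libraries, which counted the near copy AV replicate 3 as a replicate of its own. Members at few counts in AV, such as RSG04323, are limited by depth.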
